A study of Arabidopsis thaliana with 8 samples.

Results

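Chromatin accessibility was described here at the 5 class III homeodomain-leucine zipper (HD-ZIP III) genes of Arabidopsis thaliana, in cells sorted from inflorescence apices. The members were taken as a named family, PHABULOSA (PHB, AT2G34710), PHAVOLUTA (PHV, AT1G30490), REVOLUTA (REV, AT5G60690), CORONA (CNA, AT1G52150) and ATHB8 (AT4G32880), and make up 5 of 27444 nuclear protein-coding genes. All 5 were found in the gene table, where CNA is listed as ATHB-15 and ATHB8 as HB-8. All 5 passed the filter on low values, which kept 21886 genes with coverage in at least 2 libraries. The assay was ATAC-seq, in which a transposase inserts adapters into open DNA, and the deposited lists give its transposase hypersensitive sites (THSs).

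The GFP-positive group held 3 libraries of protoplasts sorted as lateral organ founder cells, and the GFP-negative group held 3 libraries of inflorescence meristem protoplasts depleted of these cells. Every library came from plants of 1 genotype, DRNL::erGFP ap1cal, grown under long days for several weeks, so the GFP-negative cells carry the reporter and the ap1 and cal mutations as well. In this double mutant, meristems proliferate in place of flowers, and both populations are therefore those of a mutant apex. The reporter places GFP under the promoter of DORNRÖSCHEN-LIKE (DRNL), so the sort follows the activity of that promoter and is not a sort by organ side or by HD-ZIP III expression. Apices of 700 to 900 plants were pooled for a sort, which gave 95000 to 300000 GFP-positive and about 300000 GFP-negative protoplasts. The series calls the 3 libraries of a group biological replicates, and 2 control libraries of sheared DNA were not analysed here.

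HD-ZIP III proteins are transcription factors that carry a homeodomain, a leucine zipper and a START domain. They specify the adaxial (upper) side of lateral organs, maintain the shoot meristem and pattern vascular tissue. Their transcripts pair with the microRNAs miR165 and miR166, which remove them from the abaxial (lower) side, where KANADI factors act against them. DRNL and its relative DRN, AP2-type factors of organ initiation, are known to bind HD-ZIP III proteins.

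The libraries listed 24156 to 28757 THSs each, which covered 17.3 to 19.6 Mb. No read counts were used here, so the depth is unknown and no counting error can be given. GFP-positive replicate 2 covered the most DNA of its group, with 19.6 Mb, and GFP-negative replicate 3 the most of its own, with 19.4 Mb. As a check of the sort, the window of DRNL was covered by THSs over 60.5% ± 5.72 among the GFP-positive libraries, against 34.7% ± 5.07 among the GFP-negative ones (SD, n = 3 each). The groups did not overlap there, but the difference did not pass limma over all genes (adjusted p = 0.0815). It passed with 500 bp flanks (adjusted p = 0.0301), with the same number of top-scoring sites from every list (adjusted p = 0.038) and on the higher-coordinate 3000 bp side (adjusted p = 0.00381). On the lower-coordinate side it was -10.1 percentage points (adjusted p = 0.704). Of 17 alternatives run for the DRNL window, 15 did not pass. With 1 library left out, its limma adjusted p ran from 0.111 to 0.200. Reads of the transgene promoter and of the native one cannot be told apart.

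The 5 genes shared a layout in which no THS lay in the middle of the gene, and THSs sat at either or both gene ends and beside them. In every library THSs overlapped both ends at PHB and ATHB8. They overlapped the higher-coordinate end alone at PHV and CNA, and the lower-coordinate end alone at REV. In every library an unbroken stretch of 83.4% to 98.7% of the gene carried no THS. This stretch was 4200 to 4700 bp long at PHB, 4677 bp at PHV in all 6 libraries, 4995 bp at REV in all 6 libraries, 4913 to 5013 bp at CNA and 4800 to 5100 bp at ATHB8. THSs reached at most 455 bp into a gene from either end. Coverage of the gene body, averaged over the 6 libraries, was 9.60% at PHB, 6.81% at ATHB8, 5.90% at PHV, 4.22% at REV and 2.57% at CNA. The median over the 2284 protein-coding genes of at least 4500 bp was 3.18%, so the bodies of 4 of the 5 members lay above it. Exons and strand are not in the gene table used, so the ends are called here by their coordinate, lower or higher, and not as promoter or 3′ end.

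**Figure D1:**
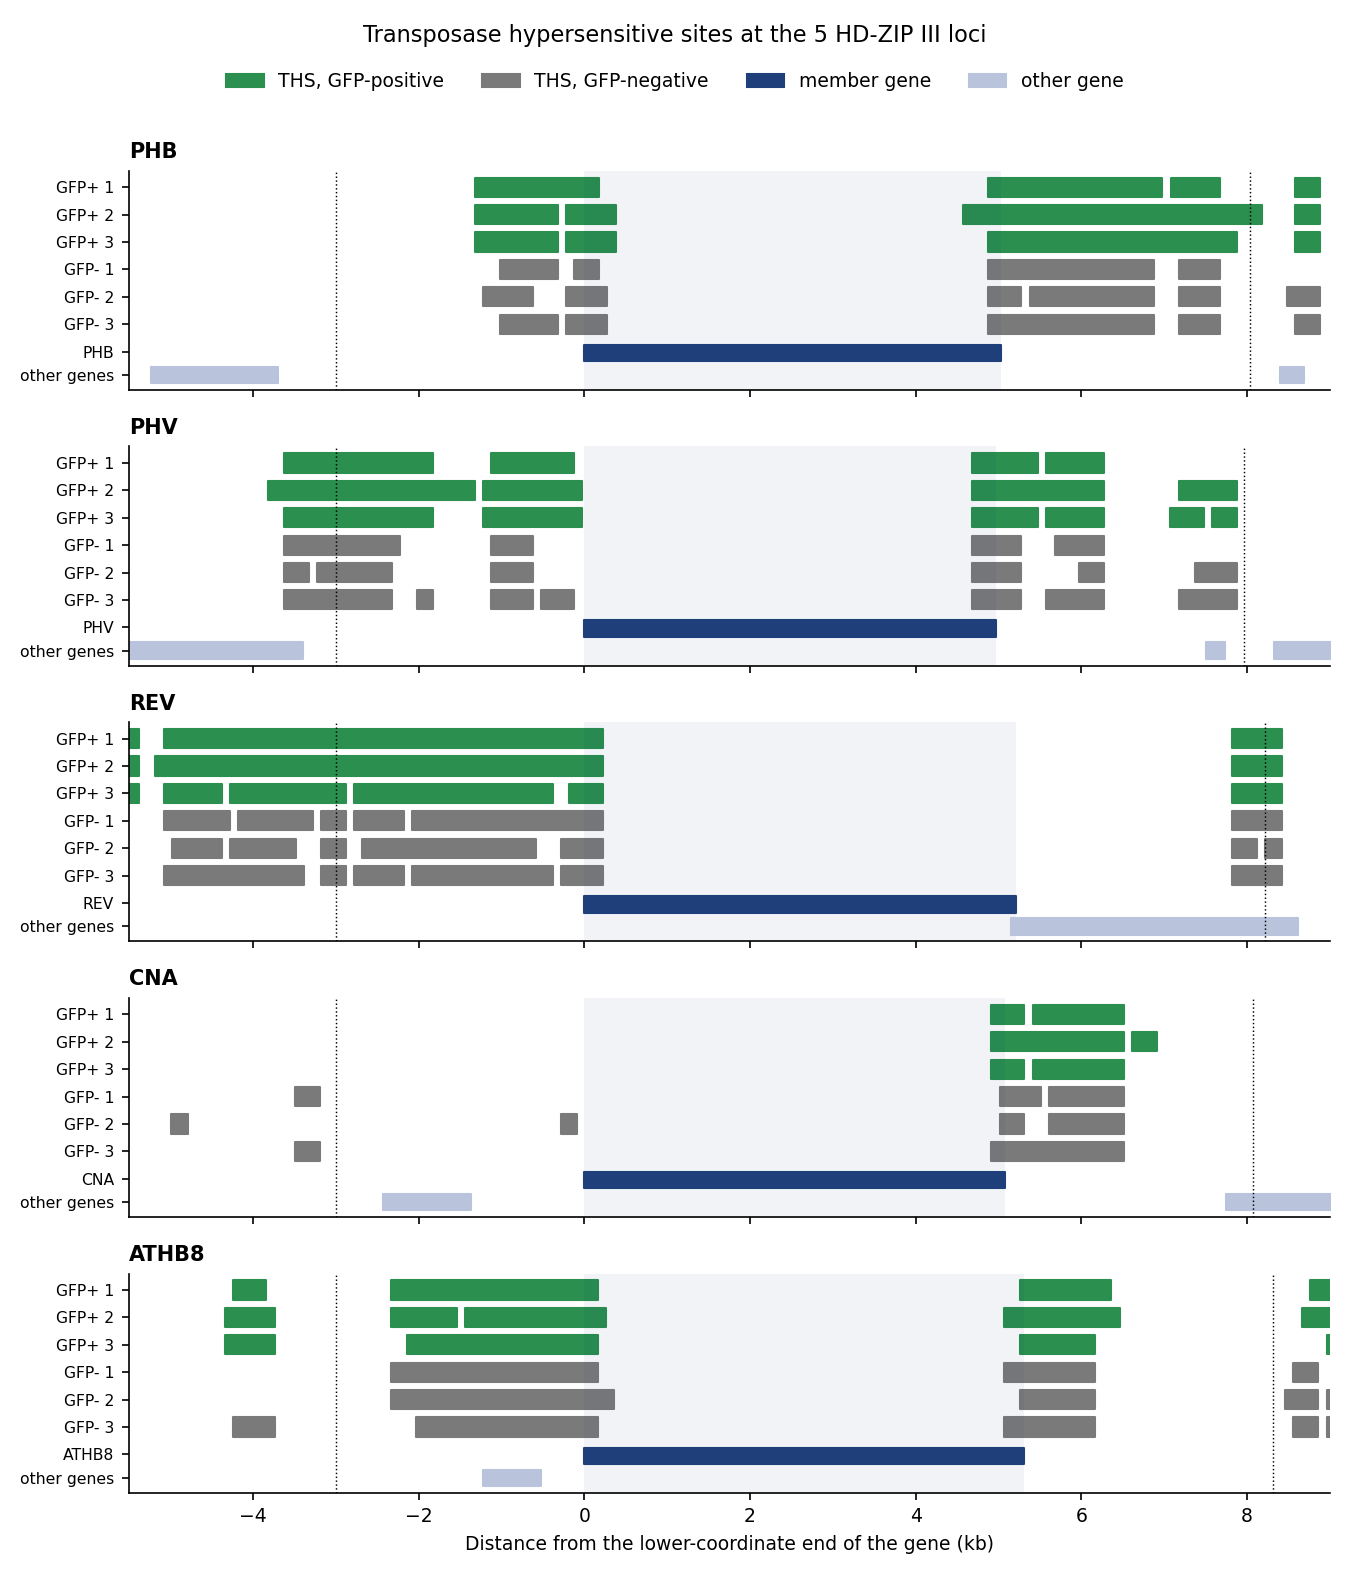
Positions of THSs at the 5 HD-ZIP III genes in each library (rows, GFP-positive above GFP-negative), as distance in kb from the lower-coordinate end of the gene; the shaded span is the member gene, pale bars are other genes and dotted lines lie 3000 bp from the gene ends. Sites cluster at either or both gene ends, and the stretch of 4200 to 5100 bp inside each gene is empty. Within the dotted lines, THSs cover more on both sides of PHB and on the lower side of PHV in the GFP-positive rows.

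The largest differences between founder cells and their neighbours were at PHB and PHV, with higher mean coverage in GFP-positive libraries, most of it beside the gene bodies. Coverage was measured as the percent of a window, the gene with 1000 bp on each side, that lies in THSs. None of the 5 members passed limma over all 21886 genes (Benjamini-Hochberg adjusted p under 0.05), where 0.347% of genes passed as higher and 1.14% as lower in GFP-positive libraries. At an unadjusted p under 0.05, 1 of the 5 members was reached, PHV, where 3.84% of all genes were reached as higher and 6.95% as lower. No other tool was run, and a p that misses the threshold does not show that the populations are alike. The median difference of the 5 members was 0.94 percentage points, and that of all genes tested was 0.

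PHB, a founding member of the family whose dominant alleles turn leaves adaxial, had the highest mean window coverage of the family over the 6 libraries. Its coverage was 33.2%, 38.9% and 34.6% in GFP-positive replicates 1 to 3, and 30.3%, 27.5% and 33.2% in GFP-negative replicates 1 to 3. The groups met at 33.2%, the lowest GFP-positive and the highest GFP-negative value. The difference was 5.21 percentage points with a standard error of 2.26 (limma adjusted p = 0.517, n = 3 each).

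Within 3000 bp of PHB, the covered length separated the groups on both sides. On the lower-coordinate side, THSs covered 1322, 1222 and 1222 bp in GFP-positive libraries, against 822, 822 and 922 bp in GFP-negative libraries. On the higher-coordinate side they covered 2545, 3000 and 2845 bp, against 2345, 2245 and 2345 bp. On either side the lowest GFP-positive library exceeded the highest GFP-negative one, which was so for 3.97% of lower and 3.86% of higher sides of all genes tested. The side measure was added after the site positions had been seen, and the adjusted p-values over sides do not cover that choice.

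The lower-coordinate side of PHB passed the test in the fit over 20237 such sides, at 41.8% ± 1.92 among the GFP-positive libraries, against 28.5% ± 1.92 among the GFP-negative ones (SD, n = 3 each). The difference was 13.3 percentage points with a standard error of 1.53 (limma adjusted p = 0.0309), and 0.717% of all such sides passed as higher and 1.55% as lower. The call was lost without any single library other than GFP-negative replicate 3, with limma adjusted p from 0.0604 to 0.0898, and when the side was shortened to 1000 bp (adjusted p = 0.675). The higher-coordinate side, at 93.2% ± 7.71 against 77.1% ± 1.92, did not pass (limma adjusted p = 0.247, SD, n = 3 each), where 0.674% of all higher-coordinate sides passed as higher.

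PHB had fewer THSs in founder cells, 3 in each GFP-positive library, against 4, 5 and 4 in the GFP-negative libraries. The share of all genes whose site counts separate in this way was not computed. The lists themselves held 24156, 26216 and 25623 THSs in GFP-positive replicates 1 to 3, and 26001, 26310 and 28757 in GFP-negative replicates 1 to 3. The count also turns on whether short gaps split a block. On the lower side, the first THS began at position 14638001 of chromosome 2 in all 3 GFP-positive libraries, and at 14638301, 14638101 and 14638301 in the GFP-negative libraries (TAIR10, counting from 1). On the higher side, the widest THS had 2100, 3600 and 3000 bp in GFP-positive replicates 1 to 3, against 2000, 1500 and 2000 bp in GFP-negative replicates 1 to 3. In each GFP-negative library a gap and a separate THS of 500 bp, at 14646501 to 14647000, followed it. GFP-positive replicate 1 had such a gap as well, before a THS of 600 bp, and GFP-positive replicates 2 and 3 had none. By the authors' score, this widest THS ranked 230th, 170th and 151st of its list in GFP-positive libraries, and 348th, 600th and 310th in GFP-negative libraries. It thus belonged to the top 2.28% of sites in each list. The lists differ in length, and no change is read from these ranks.

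PHV, the closest paralogue of PHB, had the largest difference in window coverage of the family. Its coverage was 29.7%, 32.6% and 31.1% in GFP-positive replicates 1 to 3, and 18.2%, 14.0% and 25.4% in GFP-negative replicates 1 to 3. The groups did not overlap, which was so for 1 of the 5 members as higher and for 3.61% of the genes tested, and for 0 of the 5 as lower and 6.63% of the genes tested. The difference was 11.9 percentage points with a standard error of 3.17 (limma adjusted p = 0.254, n = 3 each). Which member separated depended on the flanks. With 3000 bp flanks the PHV groups overlapped, at 33.5% to 47.2% in GFP-positive and 22.6% to 34.4% in GFP-negative libraries. The PHB groups were apart with 2000 and 3000 bp flanks, at 38.1% to 45.8% against 31.7% to 33.5% for 3000 bp. The share of all genes apart at these flanks is not given here. PHV was the only member that stood in the dTHS-up column of the authors' deposited table, which holds 121 genes, and no member stood in its dTHS-down column of 392 genes. The same table lists 25995 genes with a THS in GFP-positive and 21098 in GFP-negative cells, and all 5 members stood in both columns. Among the genes around the family compared below, AS2, DRNL, FIL, YAB3, KAN2 and MP also stood in dTHS-up, and none stood in dTHS-down. DRNL is the gene whose promoter drove the sort, and no enrichment is read from these counts. None of the sources used states the rule behind those columns.

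The PHV gene body held the same 293 bp of THS in all 6 libraries, so the difference lay entirely outside it. On the lower-coordinate side of 3000 bp, THSs covered 2177, 2877 and 2377 bp in GFP-positive libraries, against 1277, 1177 and 1777 bp in GFP-negative libraries. These are 72.6%, 95.9% and 79.2% of the side in GFP-positive libraries, against 42.6%, 39.2% and 59.2% in GFP-negative libraries. The groups did not overlap, as was so with GFP-positive higher for 3.97% of lower sides of all genes tested. The difference of 35.6 percentage points, with a standard error of 8.68, did not pass (limma adjusted p = 0.205, n = 3 each). Here too the side measure was added after the site positions had been seen. GFP-negative replicate 3, which lists more sites than any other library, came closest to the GFP-positive libraries. Without it the window difference was 15.0 percentage points (limma adjusted p = 0.0627), and with the same number of top-scoring sites taken from every list it was 11.9 percentage points (adjusted p = 0.24).

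On the higher-coordinate side of PHV the groups overlapped, with 1207, 2007 and 1907 bp in GFP-positive libraries, against 907, 1107 and 1707 bp in GFP-negative libraries. The THS over that gene end began at position 10800801 of chromosome 1 in each of the 6 libraries. From there to 10802400, where this block ended in every library, sites covered 1500, 1600 and 1500 bp in GFP-positive libraries, against 1200, 900 and 1300 bp in GFP-negative libraries. The outer limits of this block were thus the same in all libraries, and the covered length between them differed.

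REV, which acts in axillary meristems, vascular polarity and interfascicular fibres, had overlapping window coverage in the populations. It was 16.9%, 16.9% and 14.1% in GFP-positive replicates 1 to 3, and 16.9%, 12.8% and 15.5% in GFP-negative replicates 1 to 3. The groups overlapped, and the difference was 0.92 percentage points with a standard error of 1.43 (limma adjusted p = 0.854, n = 3 each). Without GFP-negative replicate 2 it was -0.23 percentage points. The gene body held the same 220 bp in all 6 libraries.

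REV differed from the other members in the block beside its lower-coordinate end, the widest accessible region of the family. It ran over 5400 bp, from 24391801 to 24397200 on chromosome 5, and overlapped no other gene of the table. GFP-positive replicates 1 and 2 listed it as a single THS of 5300 and 5400 bp, and replicate 3 as 4 THSs, of which the widest had 2400 bp. The GFP-negative libraries each listed 5 THSs there, the widest of 2300, 2100 and 1700 bp. The region was covered over 5300, 5400 and 4900 bp in GFP-positive libraries, against 4900, 4300 and 4800 bp in GFP-negative libraries, so the groups met at 4900 bp (limma adjusted p = 0.439 for the region, n = 3 each). A further THS beyond the higher-coordinate end, at 24404801 to 24405400, lay in AT5G60700, whose annotation overlaps the end of REV by 67 bp, and cannot be assigned to either gene.

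CNA, which acts with the other members in meristem size and vascular patterning, was accessible at the higher-coordinate end alone in all but 1 library. Its window coverage was 15.0%, 16.4% and 15.0% in GFP-positive replicates 1 to 3, and 13.6%, 13.6% and 16.4% in GFP-negative replicates 1 to 3. The groups overlapped, and the difference was 0.94 percentage points with a standard error of 1.01 (limma adjusted p = 0.758, n = 3 each). It was 0.47 points without GFP-positive replicate 2, GFP-negative replicate 1 or GFP-negative replicate 2, and 1.88 points without GFP-negative replicate 3. The region at that end ran from 19414601 to 19416200 on chromosome 1 and ended at the same position in all 6 libraries. The 3000 bp beyond the lower-coordinate end held no THS in 5 libraries and 200 bp in GFP-negative replicate 2, from 19409401 to 19409600.

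ATHB8, an early marker of procambium that the auxin response factor MONOPTEROS activates, had the same mean coverage in both populations. Its window was covered over 30.3%, 34.4% and 28.2% in GFP-positive replicates 1 to 3, and over 30.9% in each GFP-negative library. The GFP-positive values lay on both sides of the GFP-negative value, and the difference was 0 with a standard error of 1.76 percentage points (limma, adjusted p of 1, n = 3 each). The block at its lower-coordinate end, from 15861001 to 15863700 on chromosome 4, spanned the neighbour AT4G32870, which lies 524 bp from ATHB8. It was covered over 2500, 2500 and 2300 bp in GFP-positive libraries, against 2500, 2700 and 2200 bp in GFP-negative libraries.

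**Figure D2:**
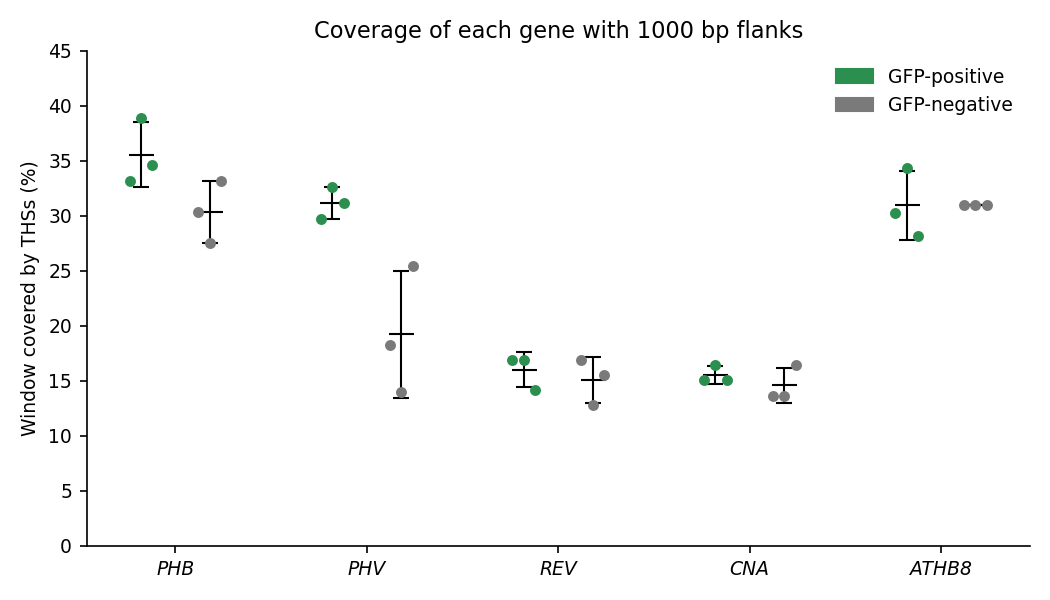
Percent of each gene window (gene with 1000 bp on each side) covered by THSs, with 1 point per library, GFP-positive left of GFP-negative, and the mean ± SD of 3 libraries. The groups are apart at PHV, at 29.7% to 32.6% in GFP-positive and 14.0% to 25.4% in GFP-negative libraries, and touch or overlap at the other 4 genes.

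In order of coverage, the members fell into a higher and a lower set. In GFP-positive libraries the order was PHB at 35.5% ± 2.96, PHV at 31.1% ± 1.43, ATHB8 at 30.9% ± 3.13, REV at 15.99% ± 1.60 and CNA at 15.5% ± 0.816 (SD, n = 3). In GFP-negative libraries it was ATHB8 at 30.9% in each library, PHB at 30.3% ± 2.84, PHV at 19.2% ± 5.75, REV at 15.1% ± 2.12 and CNA at 14.6% ± 1.63. The range of ATHB8 overlapped those of PHB and PHV in GFP-positive libraries and that of PHB in GFP-negative libraries. In GFP-negative libraries the range of PHV overlapped those of REV and CNA, and REV and CNA overlapped in each group. PHV stood beside ATHB8 in founder cells and between PHB and REV in their neighbours, where its range of 14.0% to 25.4% took in all REV values other than 12.8%. Over the 6 libraries, PHB, ATHB8 and PHV averaged 32.9%, 30.9% and 25.2%, above the median of 18.2% over all genes tested, and REV and CNA averaged 15.5% and 15.0%, below it. GFP-positive replicate 2 had the highest or joint highest GFP-positive value at each of the 5 genes, and it also covered the most DNA of its group. The part of this library's extent in the differences was not tested, and without it the difference was 11.2 percentage points at PHV and 3.55 at PHB.

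**Figure D3:**
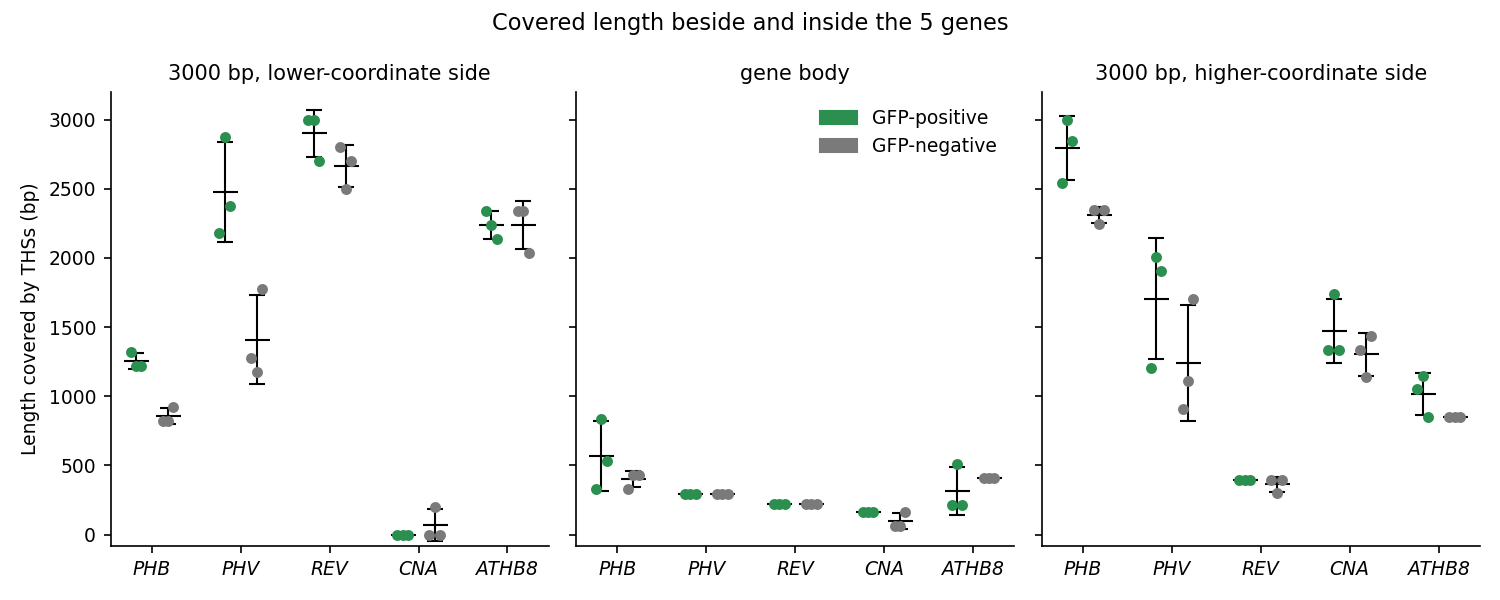
Length covered by THSs in bp on the lower-coordinate side (3000 bp), in the gene body and on the higher-coordinate side (3000 bp), with 1 point per library, GFP-positive left of GFP-negative, and the mean ± SD of 3 libraries. The groups are apart on both sides of PHB and on the lower side of PHV, and the bodies of PHV and REV hold 293 and 220 bp in all libraries.

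The same sites were also read as regions, which is another view of the same lists and no separate evidence. Joining overlapping or abutting THSs of the 6 lists gave 13 regions that overlap a member or lie within 3000 bp of it, 200 to 5400 bp wide. Of these, 10 had a THS in all 6 libraries, 1 in GFP-positive replicate 2 alone and 1 in GFP-negative replicate 2 alone, and both of these single-library regions were at CNA. No region was seen in all 3 libraries of a group and in none of the other. The percent of each region covered was fitted over 24505 regions with coverage in at least 2 libraries, and 0 of the 11 member regions tested passed limma, where 0.788% passed as higher and 2.22% as lower. At an unadjusted p under 0.05, 4 of the 11 were reached, all higher in GFP-positive libraries, where 4.15% of all regions were reached as higher. The groups did not overlap at 5 of the 11, all at PHB and PHV and all higher in GFP-positive libraries, as at 3.84% of all regions tested. The shares over all regions take in ones with a THS in only 2 libraries, while 10 member regions had one in all 6. Regions with a THS in only 2 libraries cannot be apart as higher. The 5 of 11 thus has no like share beside it. Regions of 1 gene lie side by side and are not independent.

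At PHB the region over the lower-coordinate gene end (chromosome 2, 14638001 to 14639700) was covered over 92.2% ± 3.40 among the GFP-positive libraries, against 64.7% ± 5.88 among the GFP-negative ones (SD, n = 3 each, limma adjusted p = 0.125). It passed only in the fit without a trend (adjusted p = 0.034). The region over the higher-coordinate end (14643901 to 14647500) was covered over 86.1% ± 12.7, against 68.5% ± 1.60 (limma adjusted p = 0.448), a difference of 17.6 percentage points that was 10.6 without GFP-positive replicate 2. At PHV the region 23 bp below the lower-coordinate end (chromosome 1, 10794901 to 10796100) had the largest difference, with 83.3%, 100% and 100% in GFP-positive replicates 1 to 3, and 41.7%, 41.7% and 75.0% in GFP-negative replicates 1 to 3. This region overlaps no annotated gene and gave a limma adjusted p of 0.244 (n = 3 each). A more distant PHV region (10792301 to 10794800), which reaches into the neighbour AT1G30480, had 81.3% ± 16.2 against 54.7% ± 6.11 (limma adjusted p = 0.399), a difference of 26.7 percentage points that was 17.3 without GFP-positive replicate 2. The region over the higher-coordinate end (10800801 to 10802400) had 95.8% ± 3.61 against 70.8% ± 13.0 (adjusted p = 0.298).

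**Figure D4:**
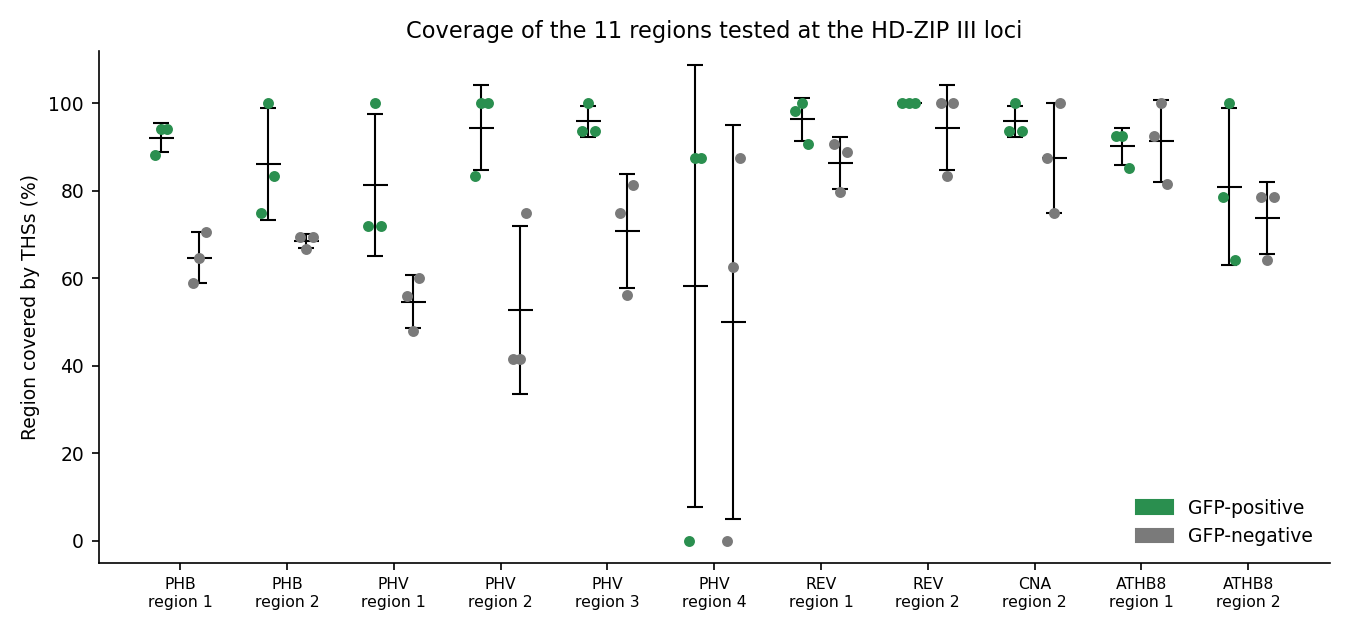
Percent of each of the 11 tested regions covered by THSs, with 1 point per library, GFP-positive left of GFP-negative, and the mean ± SD of 3 libraries; regions are numbered from the lower coordinate at each gene. The groups are apart at both PHB regions and at PHV regions 1 to 3, and overlap at the other 6.

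By 100 bp steps, the loci with 3000 bp on each side held 200 steps with a THS in any library, of which 121 (60.5%) had one in all 6, close to 57.3% over the genome. Steps with a THS in each of the 3 GFP-positive libraries and none of the GFP-negative ones numbered 8, or 4.0% of the 200, against 0.817% over the genome. They were 3 at PHB (starting at 14638001, 14646201 and 14646401) and 5 at PHV (from 10793901 to 10794100, from 10795501 to 10795600 and from 10801401 to 10801600). Steps of the reverse kind, in each of the 3 GFP-negative libraries alone, numbered 0, against 1.74% over the genome. Neighbouring steps belong to the same sites, so these are counts of a description and were not tested.

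Genes that act around the HD-ZIP III factors were compared in the same way, from 7 lists of 34 genes in all. The genes for miR165 and miR166 and the non-coding entry of ZPR4 were fitted together with all 26764 annotated nuclear genes that passed the filter, where 0.445% passed as higher and 1.35% as lower. Of 33 genes tested, 1 passed as higher and 1 as lower, 6 reached an unadjusted p under 0.05 (5 higher and 1 lower, where 3.84% of protein-coding genes were reached as higher and 6.95% as lower), and the median difference was 1.03 percentage points. The 5 include DRNL, whose promoter drove the sort. The lists were chosen with earlier results of these data known, so these counts are a description and no enrichment is read from them.

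The genes of miR165 and miR166, whose products cut HD-ZIP III transcripts, did not move in a common direction. Of 9 genes, 8 were tested and MIR166C had no THS in its window in any library. The means were higher in GFP-positive libraries at 4 and lower at 4, and 1 passed, MIR166E, as lower. Its window was covered over 14.0% in each GFP-positive library, against 18.7% in each of the 3 GFP-negative ones (limma adjusted p = 0.00438, n = 3 each). The values are identical within each group, so the spread in this test comes from the other genes of the fit. The difference is that of a single 100 bp step, the grid on which the sites were read. Among those that did not pass, MIR166D had the most negative difference, at 3.16% ± 5.46 against 14.2% ± 8.20 (limma adjusted p = 0.511), and MIR165B the most positive, at 58.2% ± 4.58 against 49.0% ± 4.58 (adjusted p = 0.462, SD, n = 3 each). The groups met at 9.47% for MIR166D and at 53.6% for MIR165B.

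No gene of the little zipper, Argonaute, HD-ZIP II and auxin lists passed the test. Among the little zipper genes, whose small proteins form inactive dimers with HD-ZIP III factors, none of 4 passed limma and none reached an unadjusted p under 0.05. ZPR4 had 24.1%, 21.2% and 21.2% in GFP-positive replicates 1 to 3, and 24.1%, 39.0% and 47.8% in GFP-negative replicates 1 to 3. Its difference of -14.8 percentage points was the most negative of the 33 genes, and its groups met at 24.1% (limma adjusted p = 0.511, n = 3 each). ZPR3 had 45.2% in each GFP-positive library, against 49.6% ± 6.61 in GFP-negative libraries (SD, n = 3). AGO1, the main microRNA effector, and AGO10, which binds miR165 and miR166 away from AGO1, did not pass, nor did they reach an unadjusted p under 0.05 (limma adjusted p = 0.787 and 0.848). Of the 5 HD-ZIP II genes, several of them targets of REV, 0 passed limma and 0 reached an unadjusted p under 0.05. HAT3 and ATHB4 were widely open in both populations, at 77.5% ± 6.25 against 74.2% ± 5.21 and at 69.5% ± 8.85 against 74.4% ± 11.2 (SD, n = 3 each). The auxin genes TAA1 and YUC5, known as REV targets, and MONOPTEROS (MP) likewise gave 0 of 3 by either threshold. MP nevertheless stood in the authors' dTHS-up column, and TAA1 and YUC5 did not.

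Of the 4 adaxial partners of the family 1 passed, AS2, a LOB-domain gene of adaxial fate, with 58.3% ± 1.19 among the GFP-positive libraries, against 16.3% ± 6.63 among the GFP-negative ones (limma adjusted p = 0.0164, SD, n = 3 each). The call was lost without any of the GFP-positive replicates (adjusted p = 0.0551 to 0.0746) and in the 1000 bp flanks alone (adjusted p = 0.0965). DRNL reached an unadjusted p under 0.05, and DRN and AS1 did not. Of the 7 abaxial genes 0 passed limma and 3 reached an unadjusted p under 0.05, all higher in GFP-positive libraries, where 3.84% of protein-coding genes were reached as higher. These were FIL, at 53.6% ± 11.5 against 21.0% in each GFP-negative library, YAB3, at 62.5% ± 3.04 against 49.2% ± 3.97, and KAN1, at 26.5% ± 2.21 against 21.7% ± 1.67 (SD, n = 3 each). Their groups did not overlap. FIL did not pass as reported (limma adjusted p = 0.128), nor in 14 of 17 alternatives, among them the replicate block (adjusted p = 0.305). It passed without GFP-positive replicate 2 (limma adjusted p = 0.00115), with 3000 bp flanks (adjusted p = 0.0425) and in the 1000 bp flanks alone (adjusted p = 0.0405). Without that replicate, FIL had 47.0% in each GFP-positive and 21.0% in each GFP-negative library. The spread in that fit thus comes from the other genes. In the 1000 bp flanks alone the difference at KAN1 was -1.03 percentage points. The groups overlapped at the other 4 abaxial genes, with differences of 3.46 percentage points at ETT, 0.47 at KAN2, -1.30 at ARF4 and -3.34 at KAN3. FIL, YAB3 and KAN2 stood in the authors' dTHS-up column, and KAN1, KAN3, ETT and ARF4 did not.

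**Figure D5:**
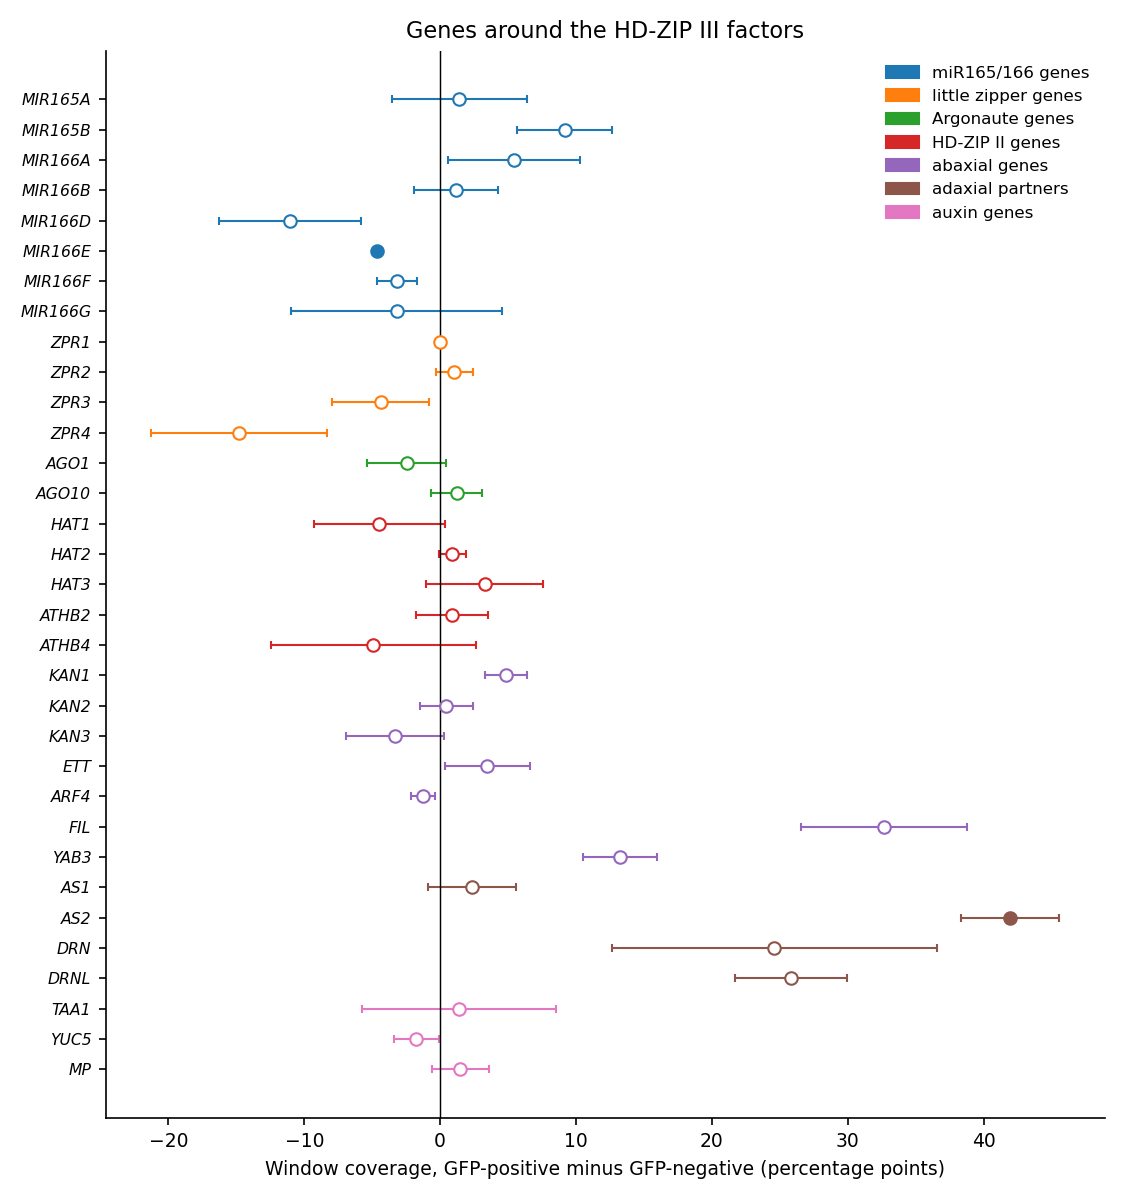
Difference in window coverage, GFP-positive minus GFP-negative, in percentage points for the 33 tested genes around the HD-ZIP III factors, coloured by list; bars are limma standard errors and filled points passed at an adjusted p under 0.05. AS2 lies farthest to the right at 42.0 points, and MIR166E, at -4.67 points, is the other filled point.

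Genes with the coverage pattern most like each member were sought by the smallest root-mean-square difference over the 6 libraries among the genes tested. For PHB these were UBC25, a ubiquitin-conjugating enzyme gene, at 0.712 percentage points, and AT5G24890 at 1.53. For PHV they were AT4G14615 at 1.55 and AT1G79100 at 1.84. For REV they were AT5G52990 at 0.872 and SVL4 at 0.910. For CNA they were AT1G21560 at 0.581 and AT1G24267 at 0.632, and for ATHB8 AT2G30380 at 0.894 and AT3G18291 at 0.920. None of these 10 genes belonged to the 7 lists. That none passed limma as fitted over all genes follows largely from picking them by closeness to members that did not pass. The match is one of covered share alone.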

How the data were processed

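Sites came from ATAC-seq of FACS-sorted protoplasts, per the labels' protocols. The submitters' processing notes name the TAIR10 build and the tools SICER, bedtools 2.17.0, Picard 1.105, SAMtools 0.1.19 and BWA 0.7. What each tool did, any read shift, the thresholds and whether the controls were used are not stated there. The lists deposited by the authors give chromosome, start, end and the authors' score per site, on an unstated scale, used here only for ranks within a list. Sites were read as whole 100 bp steps. The authors' table for the series, as deposited, holds gene identifiers alone (unit: other).

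Groups and replicate numbers came from the sample titles. Genes came from a RefSeq table of TAIR10.1, used for names, neighbours and distances. Of the GFP-negative genes of the authors' table, 99.8% or more on each chromosome had a GFP-negative site within 1000 bp, and at most 81.0% when genes were shifted by 5000 bp. The table gives no strand, exons or sequence, and no sequence is printed.

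Covered percent was fitted with limma 3.58.1 in R 4.3.3 (eBayes with a trend, no block, two-sided, Benjamini-Hochberg over all genes or regions). Code ran in Python 3.11.15 and was tested on simulated data. All 5 members are named, as are list genes that passed or whose groups did not overlap, and the 2 most similar genes per member. Some list genes outside this rule were named after their values were seen. Members and lists were chosen with earlier results of these data known. Alternatives covered window, filter, gene set, top-scoring sites, joining, trend, replicate block and left-out libraries. Same-numbered libraries deviated together with r of 0.16, 0.0672 and 0.0389 over gene windows, so numbers were not taken to pair them.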

Additional observations from a re-analysis of the deposited data

How the results depend on the processing

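The windows of the 5 members failed the threshold under every alternative run, apart from the added side measure at PHB. Differences at PHV lay between 0 (gene body alone) and 41.6 percentage points (1000 bp flanks alone), with adjusted p from 0.0627 to 1. At REV the difference ranged from -0.231 to 1.85 points when 1 library was left out. PHB's lower-coordinate side, at 13.3 points, passed where its window had not, on a measure added after the site positions had been seen. It was no longer past the threshold at 1000 bp (16.7 points) or when any 1 library other than GFP-negative replicate 3 was left out (12.2 to 14.4 points over the 6 fits).

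No label says that replicate numbers pair the libraries, and GFP-positive replicate 2 deviated most like GFP-negative replicate 3. With a replicate block, 1 gene passed as higher and 29 as lower, 65 regions as higher and 148 as lower, and PHB's lower side kept 13.3 points at an adjusted p of 0.224. AS2 and MIR166E also lost their calls.

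Genes higher, 76 as reported, were 43 with 3000 bp flanks, 125 in flanks alone, 46 with coverage in at least 4 libraries, 119 among all nuclear genes, 187 with top-scoring sites, 145 and 136 on the lower and higher sides, and 84 to 208 with 1 library left out (130 without GFP-positive replicate 3, 208 without GFP-negative replicate 3). Genes lower, 249 as reported, were 120 with coverage in at least 4 libraries and 141 to 443 with 1 library left out (141 and 158 without GFP-positive replicate 1 or 3, 443 without GFP-negative replicate 1). Regions higher, 193 as reported, were 371 with top-scoring sites, 118 with sites within 200 bp joined and 210 to 423 with 1 library left out (307 and 318 without GFP-positive replicate 1 or 3, 423 without GFP-negative replicate 3). Regions lower, 543 as reported, were 452 to 1128, the most without GFP-negative replicate 1. The difference at KAN1 was -1.03 points in flanks alone, and that of the PHV region beyond 2000 bp from its higher end ran from -16.7 to 37.5 points, with -6.25 without GFP-positive replicate 2 or 3. With 1 library left out, the ATHB8 regions ran from -6.17 to 3.09 and from -2.38 to 15.5 points. Signs also turned at genes named for likeness: UBC25 with -2.51 and SVL4 (AT5G58050) with -1.07 points at 3000 bp flanks, AT2G30380 with -0.57 at 2000 and -0.99 at 3000 bp flanks, and AT5G24890 with -3.81 and AT1G21560 with -1.365 in the gene body. With 1 library left out, SVL4 ran from -0.311 to 1.56 and AT2G30380 from -0.581 to 2.24. AT1G79100 passed with top-scoring sites (adjusted p = 0.0171) and without GFP-negative replicate 3 (0.0168), and AT1G21560 in flanks alone (0.000801). The causes were not tested.

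The lists give no depth, so a THS missing from a library cannot be told from one below its threshold.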
